A study of Homo sapiens with 5 samples.

Results

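DEAD and DEAH box RNA helicases were followed in MHH-ES-1 cells that carried a mimic of one arm of the microRNA miR-483 or a scrambled control mimic. The members were all probe sets of an Affymetrix HG-U133 Plus 2 array annotated to a symbol of DDX or DHX and a number, with or without a letter. This rule found 121 probe sets with 1 gene each among 54613, for 51 genes (35 DDX and 16 DHX) of 19775 with a probe set of their own. Values are given for 117 of them, for 50 genes, and the 4 probe sets of DDX3Y were counted without values. A further 7 probe sets are listed for a DDX or DHX gene together with other genes and were not used to name one.

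MHH-ES-1 is an established human Ewing sarcoma line, a tumour type driven by a fusion of EWSR1 with an ETS factor gene. There were 2 arrays with the miR-483-5p mimic, 1 with the miR-483-3p mimic and 2 with the scrambled control, all at 50 nM in lipid transfection and with RNA taken after 48 h. The second array of either pair is labelled as a repeat, with no word on whether its cells were cultured apart, so the p-values measure spread that may be technical. All groups share one line, one dose and one time, and a transfected mimic adds microRNA from outside the cell.

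DEAD and DEAH box proteins use ATP to unwind RNA duplexes or to remodel complexes of RNA and protein, and are named for a conserved stretch of amino acids in their ATP binding core. They act at nearly every step in the life of an RNA: transcription, splicing, export, ribosome assembly, translation, microRNA processing and decay. DHX9, also called RNA helicase A, unwinds RNA and RNA:DNA hybrids and acts as a transcription coactivator, and it has been reported as a partner of miR-483-5p at IGF2, the gene whose intron holds the microRNA.

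The promoter of DHX9 is shown because DHX9 is the member tied to miR-483-5p by earlier work and because an antisense gene with probe sets of its own, DHX9-AS1, starts 244 bases downstream on the opposite strand. Both windows run from 250 bases before to 50 bases after the start site, from RefSeq on GRCh38.p14. The DHX9 window is chr1:182839097-182839396 on the plus strand and the DHX9-AS1 window is chr1:182839542-182839841 on the minus strand, each printed 5′ to 3′ along its own strand. Capitals mark the GC box letters GGGCGG and the CCAAT box letters CCAAT, searched on both strands, so that CCGCCC and ATTGG are the same motifs on the opposite strand.
DHX9: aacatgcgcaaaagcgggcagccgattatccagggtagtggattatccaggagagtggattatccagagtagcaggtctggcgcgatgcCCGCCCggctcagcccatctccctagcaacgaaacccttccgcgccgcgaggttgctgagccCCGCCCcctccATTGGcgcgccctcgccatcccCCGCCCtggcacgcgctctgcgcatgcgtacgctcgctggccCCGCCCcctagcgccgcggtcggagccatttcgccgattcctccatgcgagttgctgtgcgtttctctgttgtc
DHX9-AS1: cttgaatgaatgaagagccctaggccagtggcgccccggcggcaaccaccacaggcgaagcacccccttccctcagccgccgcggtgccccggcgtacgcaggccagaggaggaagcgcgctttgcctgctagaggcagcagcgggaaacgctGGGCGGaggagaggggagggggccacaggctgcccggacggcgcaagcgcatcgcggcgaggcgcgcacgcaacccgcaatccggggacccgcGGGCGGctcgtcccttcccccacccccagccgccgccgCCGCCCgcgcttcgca
The DHX9 window held 4 GC boxes and 1 CCAAT box, and the DHX9-AS1 window held 3 GC boxes and no CCAAT box. No match overlapped another. A GC box was present in 60.7% of the 61 windows of the 46 member genes above the signal filter and in 45.0% of all 35116 windows of this kind, and a CCAAT box in 47.5% and 34.6%. The member windows were limited to genes above the filter and the 35116 were not, so the shares are of unlike sets. A match describes the letters only.

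Of the 117 member probe sets, 101 passed a filter on low values, which asked for a mean log2 signal over the 5 arrays above the array-wide 40th percentile (27.2 on the signal scale). They stand for 46 genes, and their mean signals ran between 28.1 and 3598. The other 16 averaged between 2.42 and 28.3, and DDX4, DDX53, DDX19B and DHX58 were represented by such dim probe sets alone. The 5 genes with the brightest member probe sets were DDX17, DDX3X, DHX15, DDX39A and DDX21. Probe sets listed with other genes were left out of this ranking. Among those, 200033_at for DDX5 averaged 5653 and 200041_s_at for DDX39B averaged 3265. A probe set's brightness also depends on its probes, so no order of transcript levels is read from it.

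The arrays were scaled to a common mean of 150 after trimming 2% at each end, and their median signals lay between 39.2 and 44.9. The lowest median was that of the first miR-483-5p array. The ratio of 3′ to 5′ control probe sets of GAPDH, a measure of RNA integrity, was 1.09 and 1.10 with miR-483-5p and 1.06 with miR-483-3p, against 1.02 and 0.996 in the control. ACTB control probe sets gave 1.18 and 1.07 in the miR-483-5p pair and 1.09 with miR-483-3p, against 1.07 and 1.04 in the control, so the first miR-483-5p array had the highest ACTB ratio. The part of these differences in the results was not tested. All 5 markers of Ewing sarcoma cells were above the filter on these arrays, with CD99 between 4381 and 5093. Of the 4 markers of other cells, PTPRC, CD3E and EPCAM lay below the filter and PECAM1 lay between 132.6 and 169.5. In RNA from whole cultures, fewer cells of a kind and less RNA per cell cannot be told apart.

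No DDX or DHX probe set passed the test with either arm of miR-483. At an adjusted p under 0.05 (limma on log2(signal + 32), Benjamini-Hochberg over 32768 probe sets), 0 of 101 members were called in miR-483-5p against the control, where 0% of all tested probe sets were called. The counts were likewise 0 of 101 members and 0% of all for miR-483-3p against the control, and 0 of 101 and 0% for miR-483-5p against miR-483-3p. The lowest limma adjusted p among members was 0.516, for DDX5 with miR-483-5p, and over all probe sets it was 0.495. With miR-483-5p, the 95% interval of the log2 difference lay within 1 of 0 on either side for 94 of 101 members, and within 0.5 for 38. With the single miR-483-3p array, whose spread was taken from the other groups, these counts were 90 and 12. The intervals are not adjusted for the number of members and use a spread between arrays that may be technical. They therefore do not bound effects across separate cultures, and on this scale dim probe sets show too small a change.

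Member differences with miR-483-5p were small and lay on both sides of 0. The median log2 difference from the control was 0.02 over the 101 members, with 53 higher and 48 lower, and -0.02 over all probe sets tested. The median size without its sign was 0.13 for members and 0.16 for all probe sets. Members were brighter at the median than all probe sets tested, and the part of brightness in these sizes was not tested. At an unadjusted limma p under 0.05, 4 members (3.96%) were higher, where the share of all probe sets was 4.06%, and 4 (3.96%) were lower, where it was 4.27%. The miR-483-5p pair lay wholly above the control pair for 27 members (26.7%), against 18.5% of all probe sets, and wholly below it for 15 (14.9%), against 21.2%. The difference between the groups was larger than the difference between the arrays of either pair for 30 members (29.7%), close to the 27.5% of all probe sets. Leaving out 1 array of a pair turned the sign of the miR-483-5p difference in 47 of the 101 members and moved it by over 1.5 times in 36 others. Of the 8 members at an unadjusted p under 0.05, all but DHX34 moved by less than that.

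DHX9 signals differed in direction among its 3 probe sets. Probe set 202420_s_at had signals of 1822.3 and 1821.5 with miR-483-5p and 1708.7 with miR-483-3p, against 1404.2 and 1554.1 in the control. Both miR-483-5p arrays and the miR-483-3p array stood above both control arrays, and the miR-483-5p arrays were nearly equal. The log2 difference was 0.30 for miR-483-5p against the control (SE 0.15, limma adjusted p = 0.657), 0.21 for miR-483-3p against the control (adjusted p = 0.976) and 0.09 between the arms, miR-483-5p minus miR-483-3p (adjusted p = 0.980).

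Probe set 212107_s_at of DHX9 had 486 and 1207.5 with miR-483-5p and 952.2 with miR-483-3p, against 828.8 and 959.8 in the control. Probe set 212105_s_at had 167.7 and 807.2 with miR-483-5p and 690.2 with miR-483-3p, against 518.8 and 593.8 in the control. In both, the first miR-483-5p array was the lowest of all 5 and the second was the highest, so the groups overlapped. Their log2 differences from the control were -0.21 (95% interval -1.11 to 0.70) and -0.52 (-1.93 to 0.89) with miR-483-5p, with limma adjusted p of 0.908 and 0.837. One array decided the sign: with the first miR-483-5p array left out the differences were 0.42 and 0.52, and with the second left out they were -0.83 and -1.56. With miR-483-3p the differences from the control were 0.09 and 0.30, and miR-483-5p minus miR-483-3p gave -0.30 and -0.82, all with a limma adjusted p of 0.946 or more.

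The gap between the miR-483-5p arrays in DHX9 was among the widest on the array. On the log2(signal + 32) scale the first array minus the second was -2.07 in 212105_s_at, a gap that only 7 of 32768 probe sets (0.0214%) equalled or passed, itself included. In 212107_s_at it was -1.26, which 143 probe sets (0.436%) equalled or passed. In 202420_s_at it was 0.000623 in size. The control arrays differed by -0.18 and -0.20 in the first 2 of these. The 3 probe sets read the same gene on the same arrays, and what sets them apart was not tested.

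**Figure D1:**
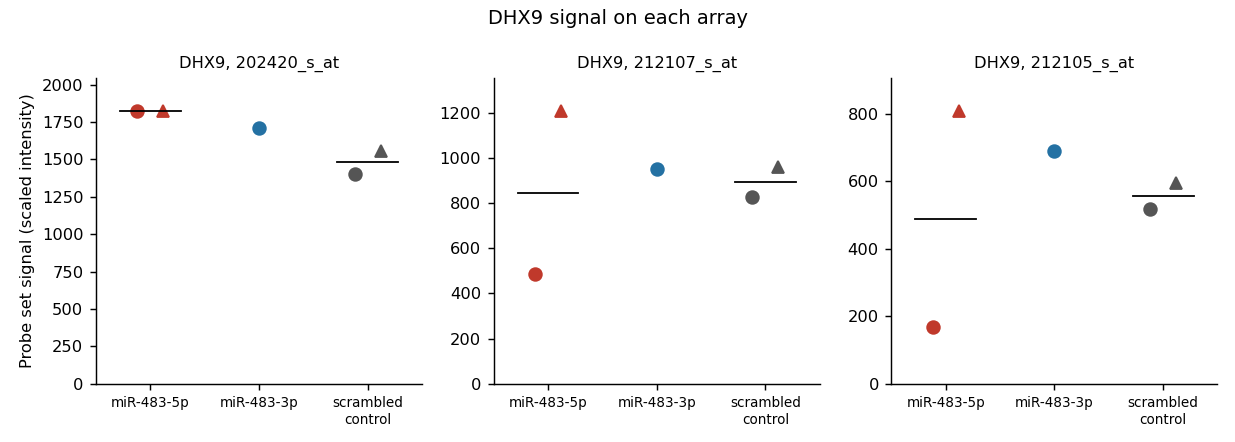
Signal of the 3 DHX9 probe sets (scaled intensity, linear axis from 0) on each array, with miR-483-5p at the left, miR-483-3p in the middle and the scrambled control at the right. Circles are the first and triangles the second array of a group, and bars are means of pairs. The first miR-483-5p array is the lowest point in 212107_s_at (486) and 212105_s_at (167.7), while both miR-483-5p arrays sit at about the same height in 202420_s_at (1822.3 and 1821.5).

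The helicases of microRNA processing and transcription, DHX9, DDX5, DDX17, DDX6 and DDX20, had 14 probe sets above the filter. Under miR-483-5p, 11 of these were higher than the control and 3 lower, with a median log2 difference of 0.17, and 0 passed the test. The miR-483-5p pair stood wholly above the control pair in 6 of the 14, and wholly below it in 0. These are 42.9% and 0%, where the shares of all probe sets were 18.5% and 21.2%. Splicing and mRNA export helicases had a like share wholly above, 42.1%, with 15.8% wholly below. The 14 probe sets come from 5 genes, 5 of them from DDX17, and do not stand for 14 separate members. With miR-483-3p, 10 were higher and 4 lower, with a median of 0.12. Both medians use the same control arrays, and the list was chosen with results of these data known.

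DDX5, or p68, is a helicase of the Drosha complex that cuts primary microRNAs, and a transcription coactivator. Its probe set 225886_at had 288.1 and 295.8 with miR-483-5p and 275.7 with miR-483-3p, against 163.3 and 157.5 in the control. The 3 mimic arrays lay close together and well above both control arrays. The miR-483-5p mean was 292 ± 5.44 and the control mean was 160 ± 4.10 (SD, n = 2 each). This was the highest log2 difference of any member with either mimic: 0.75 with miR-483-5p (SE 0.15, 95% interval 0.40 to 1.11, limma adjusted p = 0.516) and 0.68 with miR-483-3p (SE 0.18, adjusted p = 0.743). Without the first miR-483-5p array DDX6 at 1562836_at stood above it, at 0.90. With miR-483-3p, DDX46 at 228039_at ranked highest without the first control array (0.78), and DDX11 at 210206_s_at without the second (0.76). A much brighter probe set, 200033_at, is listed for DDX5 and for the microRNA genes MIR3064 and MIR5047 and had 6176.3 and 5935.3 with miR-483-5p and 5678 with miR-483-3p, against 5281.1 and 5194.9 in the control. It also placed all mimic arrays above both control arrays, by a smaller ratio.

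DDX17, or p72, is the close paralog of DDX5 in the same complex, and paralogs of such likeness may share probe signal. All 5 DDX17 probe sets had a positive log2 difference with miR-483-5p, between 0.04 and 0.38. The brightest, 208718_at, had 3831.4 and 4322.1 with miR-483-5p and 3235 with miR-483-3p, against 2748.2 and 3516.2 in the control. Both miR-483-5p arrays were the highest of the 5, and the control arrays differed by more than the gap between the groups' nearest arrays (log2 difference 0.38, SE 0.18, limma adjusted p = 0.641). Set against the second control array alone the difference was 0.21, and against the first alone it was 0.56. Against miR-483-3p, 208718_at gave 0.33 and 213998_s_at gave 0.46 for miR-483-5p minus miR-483-3p, with limma adjusted p of 0.923 and 0.890.

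DDX6 binds the CCR4-NOT complex and represses translation of mRNAs held by microRNAs. Its probe set 225549_at had 789.5 and 596.9 with miR-483-5p and 698 with miR-483-3p, against 590.2 and 646.2 in the control, so the groups overlapped (log2 difference 0.15, limma adjusted p = 0.858). Probe set 1562836_at had 45.4 and 158.4 with miR-483-5p and 106.9 with miR-483-3p, against 73 and 67.1 in the control, again with the first miR-483-5p array lowest and the second highest. The dimmest, 204909_at, had 43.8 and 42.8 with miR-483-5p and 49.3 with miR-483-3p, against 38.9 and 34.6 in the control, with no overlap (0.13, limma adjusted p = 0.837). DDX20, also called Gemin3, belongs to the SMN complex that assembles small nuclear ribonucleoproteins. Its probe set 223331_s_at had 880.2 and 862.7 with miR-483-5p and 849.5 with miR-483-3p, against 822.2 and 861.2 in the control. That small gap, a log2 difference of 0.05, compares with -0.09 in its other probe set 224315_at.

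Splicing and mRNA export helicases had 19 probe sets above the filter, 11 higher and 8 lower with miR-483-5p. Their median log2 difference was 0.08, and 0 passed the test. The miR-483-5p pair lay wholly above the control pair in 8 (42.1%), against 18.5% of all probe sets. It lay wholly below in 3 (15.8%), against 21.2% of all. The 19 probe sets come from 11 genes, and DDX23 and DDX46 each entered the 8 with more than 1 probe set. These 8 therefore do not stand for 8 separate members. With miR-483-3p, 13 were higher and 6 lower, with a median of 0.06. DHX8, the human Prp22 that releases spliced mRNA from the spliceosome, had 2 probe sets whose gaps from the control lay under different arms, neither past the test. Its probe set 203334_at had 99 and 96.8 with miR-483-5p and 124 with miR-483-3p, against 137.3 and 136.9 in the control. The miR-483-5p arrays were lowest, with pairs that barely varied (log2 difference -0.38, SE 0.15, limma adjusted p = 0.590). Probe set 227079_at had 123.9 and 115.7 with miR-483-5p and 191.5 with miR-483-3p, against 129 and 118 in the control. Here the single miR-483-3p array stood apart, with a log2 difference of 0.52 from the control (limma adjusted p = 0.826) and of -0.56 for miR-483-5p minus miR-483-3p (adjusted p = 0.832, the lowest among members in that comparison).

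DDX39A, an mRNA export helicase, had 2846.8 and 2029.4 with miR-483-5p and 2722 with miR-483-3p, against 2032 and 2028.4 in the control. The second miR-483-5p array lay level with the control and the first stood far above it, and miR-483-3p gave a log2 difference of 0.42 from the control (limma adjusted p = 0.953). DDX46, the human Prp5 of early spliceosome assembly, had 179.8 and 177.3 with miR-483-5p and 202.2 with miR-483-3p, against 172.1 and 104.3 in the control at 228039_at. Here 1 control array lay far below the other 4, and the log2 difference with miR-483-3p was 0.49 (limma adjusted p = 0.945, and 0.20 to 0.78 with 1 control array left out). The brighter DDX46 probe set, 202462_s_at, had 1306.2 and 1232.2 with miR-483-5p and 1186.4 with miR-483-3p, against 1089 and 1079.8 in the control. Its log2 differences from the control were smaller, 0.22 with miR-483-5p and 0.13 with miR-483-3p, and neither passed the test. DHX15, which takes spent spliceosomes apart, had 2806.7 and 2758 with miR-483-5p and 2607.4 with miR-483-3p, against 2537.2 and 2738.1 in the control at its brightest probe set 201385_at. The gap between the DHX15 control arrays was wider than that between the group means.

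Ribosome assembly helicases formed the largest group, with 31 probe sets above the filter for 14 genes. With miR-483-5p, 13 were higher and 18 lower, with a median log2 difference of -0.06, and with miR-483-3p 16 were higher and 15 lower, with a median of 0.004. None passed the test: 0 at an adjusted p under 0.05 with limma, while DDX31 alone supplied the ribosome assembly probe sets at an unadjusted p under 0.05. The miR-483-5p pair lay wholly above the control pair in 4 (12.9%), against 18.5% of all probe sets, and wholly below it in 7 (22.6%), close to the 21.2% of all.

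DDX31, a nucleolar helicase of ribosome assembly, lay below the control under both mimics in 2 of its 3 probe sets, without passing the test. Its probe set 235436_at had 78.7 and 62 with miR-483-5p and 63.7 with miR-483-3p, against 101.7 and 116 in the control. Probe set 219328_at had 120.5 and 118.8 with miR-483-5p and 93.1 with miR-483-3p, against 142.7 and 151 in the control. In neither did a mimic array reach a control array. The log2 differences were -0.46 and -0.24 with miR-483-5p (limma adjusted p = 0.574 and 0.707) and -0.56 and -0.52 with miR-483-3p (0.832 and 0.826), each set against the same control arrays. The remaining DDX31 probe set, 1553181_at, ran the other way, with 107.6 and 110.5 with miR-483-5p and 141.8 with miR-483-3p, against 102.3 and 99.2 in the control. Its log2 difference with miR-483-5p was 0.09.

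DDX21, a nucleolar helicase that also associates with RNA polymerases, had 2319.5 and 2220.3 with miR-483-5p and 2527.2 with miR-483-3p, against 2380 and 2292 in the control at its brightest probe set. Control and miR-483-5p arrays overlapped. DHX37, an assembly factor of the small ribosomal subunit, had 237.6 and 261.3 with miR-483-5p and 246.8 with miR-483-3p, against 327.7 and 282 in the control at 223365_at, with a log2 difference of -0.26 for miR-483-5p (limma adjusted p = 0.706). The second DHX37 probe set, 223364_s_at, had 280.3 and 241.6 with miR-483-5p, against 264.3 and 249.5 in the control, and overlapped. With miR-483-3p, DDX27 at 221780_s_at had a log2 difference of -0.36 and DDX49 at the dim 232915_at one of -0.30, with limma adjusted p of 0.950 and 0.983. The brighter DDX27 probe set, 215693_x_at, gave 0.09, and 219108_x_at, listed for DDX27 and SS18, gave 0.33. The brightest of DDX49, 31807_at, gave 0.10, and its 210811_s_at gave -0.18. Between the arms, miR-483-5p minus miR-483-3p was 0.48 for DDX52 at 213637_at, -0.42 for DDX51 at 214968_at and -0.39 for DDX56 at 238525_at, with limma adjusted p of 0.913, 0.883 and 0.934. The miR-483-5p arrays themselves differed by 0.70 at 213637_at and 0.67 at 238525_at. Other probe sets above the filter gave -0.17 and 0.19 for DDX52 (210320_s_at and 212834_at). They gave -0.05 for DDX51 (1554085_at) and -0.005 for DDX56 (217754_at).

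Helicases of translation, decay and other cytoplasmic RNA had 13 probe sets above the filter, 4 higher and 9 lower with miR-483-5p, with a median log2 difference of -0.08, and 0 passed the test. With miR-483-3p, 8 were higher and 5 lower, with a median of 0.02. The lowest difference of any member with miR-483-5p was in DHX34, a helicase of nonsense-mediated decay. Its probe set 204815_s_at had 67.2 and 110 with miR-483-5p and 118.7 with miR-483-3p, against 139.9 and 187.2 in the control. Both miR-483-5p arrays were lowest, but each pair was widely spread, and the log2 difference of -0.71 had an interval from -1.25 to -0.17 (SE 0.23, limma adjusted p = 0.547). With the first miR-483-5p array left out it was -0.45, where DDX31 at 235436_at was the lowest member with -0.58, and with the second left out it was -0.97, where DHX9 at 212105_s_at was the lowest with -1.56. The other DHX34 probe set, 214017_s_at, had 112.4 and 109.4 with miR-483-5p and 186.1 with miR-483-3p, against 167.6 and 112.3 in the control, so that miR-483-5p overlapped the control. It gave the lowest miR-483-5p minus miR-483-3p difference that did not overlap, -0.61 (limma adjusted p = 0.860).

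DDX3X, which helps ribosomes to start on structured mRNAs, differed among its 5 probe sets above the filter. The brightest, 201210_at, had 3970.4 and 3616.4 with miR-483-5p and 3546.3 with miR-483-3p, against 3525.3 and 3333.5 in the control (log2 difference 0.14, limma adjusted p = 0.829). Probe set 212515_s_at had 1342.5 and 1320.8 with miR-483-5p and 1326.1 with miR-483-3p, against 1014.9 and 1044.1 in the control (0.36, SE 0.15, limma adjusted p = 0.599). In both, every miR-483-5p array was above every control array, and in 212515_s_at the miR-483-3p array stood level with them. In 212514_x_at, with 678.2 and 1182.7 with miR-483-5p and 1042.4 with miR-483-3p, against 1019.9 and 1035 in the control, the first miR-483-5p array was again the lowest and the second the highest, as in DHX9. The log2 differences of 212514_x_at, 201211_s_at and 1558120_at were -0.19, 0.06 and -0.08, and each turned sign when 1 miR-483-5p array was left out. In these the difference was within the spread between arrays.

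DDX1, a partner of the tRNA ligase, had 1614.2 and 1617.5 with miR-483-5p and 1614.2 with miR-483-3p, against 1492 and 1676.1 in the control, with the mimic arrays inside the range of the control (log2 difference 0.03, 95% interval -0.34 to 0.40, limma adjusted p = 0.974). DHX36, which unwinds G-quadruplexes in RNA and DNA, had log2 differences of -0.05, -0.13 and -0.14 in its 3 probe sets above the filter. The last of these, 223138_s_at, had 386.8 and 372.8 with miR-483-5p and 384.7 with miR-483-3p, against 429.5 and 413 in the control. Its arrays did not overlap, and the limma adjusted p was 0.830.

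DDX11 is a DNA helicase with an iron-sulfur cluster that acts in sister chromatid cohesion, and carries a DDX name without being an RNA helicase of the DEAD box kind. Among all members its probe sets disagreed most, with log2 differences with miR-483-5p between -0.37 and 0.58. Probe set 210206_s_at had 256 and 270.5 with miR-483-5p and 280.6 with miR-483-3p, against 153 and 180.2 in the control. Probe set 232816_s_at had 235.7 and 273.3 with miR-483-5p and 203 with miR-483-3p, against 162.8 and 199.8 in the control. Both were higher on every mimic array than on either control array. The log2 differences with miR-483-5p were 0.58 (SE 0.16, limma adjusted p = 0.525) and 0.43 (SE 0.17, adjusted p = 0.593), and with miR-483-3p 210206_s_at gave 0.66 (SE 0.20, adjusted p = 0.779).

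In the opposite direction, DDX11 probe set 208149_x_at had 524.2 and 520.3 with miR-483-5p and 562.5 with miR-483-3p, against 707.1 and 666.5 in the control. Its log2 difference with miR-483-5p was -0.37 (SE 0.15, limma adjusted p = 0.593), and all mimic arrays lay below the control arrays. Probe set 208159_x_at had 596.9 and 440.4 with miR-483-5p and 484 with miR-483-3p, against 551.4 and 573.1 in the control, and overlapped. A further probe set, 213378_s_at, is listed for DDX11 together with DDX12P, its near-identical pseudogene, and had 640 and 622.9 with miR-483-5p and 583.3 with miR-483-3p, against 452.4 and 445.1 in the control. Because such copies can share probes, the DDX11 values are uncertain, and the part of the copies in the disagreement was not tested.

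**Figure D2:**
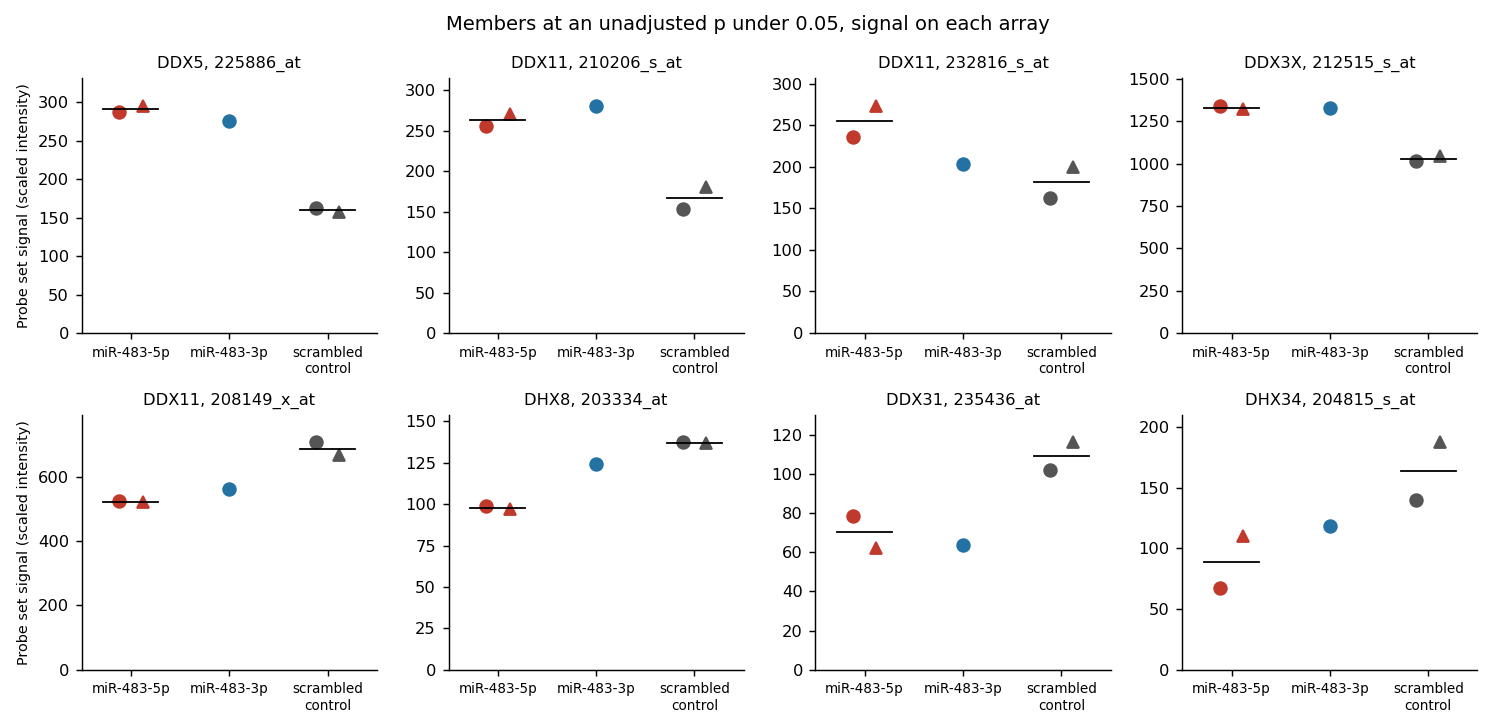
Signal (scaled intensity, linear axes from 0) of the 8 member probe sets at an unadjusted limma p under 0.05 in miR-483-5p against the control, on each array, with miR-483-5p at the left, miR-483-3p in the middle and the scrambled control at the right. Circles and triangles are the first and second array of a group and bars are means of pairs. DDX5 225886_at, DDX3X 212515_s_at and DDX11 210206_s_at and 232816_s_at lie above the control, and DDX11 208149_x_at, DHX8 203334_at, DDX31 235436_at and DHX34 204815_s_at lie below it.

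Mitochondrial helicases had 8 probe sets above the filter for DDX28 and DHX30, 5 higher and 3 lower with miR-483-5p and with miR-483-3p, with median log2 differences of 0.06 and 0.06. DDX28, a factor of mitochondrial ribosome assembly, had 152.5 and 141.9 with miR-483-5p and 204.1 with miR-483-3p, against 185.4 and 193.7 in the control at 203785_s_at. The miR-483-5p arrays were the lowest, with log2 differences of -0.31 from the control (limma adjusted p = 0.647) and -0.40 from miR-483-3p (adjusted p = 0.885). Its other 3 probe sets overlapped the control. DHX30, which supports mitochondrial translation, gave 0.37 for miR-483-5p minus miR-483-3p at the dim probe set 1556144_at (limma adjusted p = 0.908). Its brighter probe sets 212674_s_at, 204355_at and 230871_at gave -0.07, 0.04 and -0.09.

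Of the germ line helicases, DDX43, known as a cancer/testis antigen, had 109.1 and 90 with miR-483-5p and 97.9 with miR-483-3p, against 84.7 and 51.4 in the control. Every mimic array was above the control arrays, whose own spread was wider than the gap to them (log2 difference with miR-483-5p 0.41, SE 0.21, limma adjusted p = 0.654, and 0.17 to 0.65 with 1 array left out). DDX25 overlapped the control, and DDX4 and DDX53 lay below the filter. DDX59 at 228385_at, in no role group here, gave 0.31 for miR-483-5p minus miR-483-3p (limma adjusted p = 0.917). The other DDX59 probe sets, 223662_x_at and 228386_s_at, gave -0.11 and 0.08.

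Helicases that sense viral RNA had 3 probe sets above the filter, 2 higher and 1 lower with miR-483-5p, and 0 passed the test. DDX60, an interferon-induced helicase, had 94.9 and 82.2 with miR-483-5p and 90.8 with miR-483-3p, against 67.6 and 92.6 in the control, which overlapped. DDX60L had 67.6 and 63.2 with miR-483-5p and 43.2 with miR-483-3p, against 56.9 and 41.3 in the control at 228152_s_at, with the miR-483-5p arrays highest, while its second probe set overlapped. DHX58, or LGP2, lay below the filter, with a miR-483-5p mean of 4.20 ± 0.71 and a control mean of 4.30 ± 0.28 (SD, n = 2 each). RIGI, once named DDX58 and so outside the rule, had 97.4 and 105.6 with miR-483-5p and 119.1 with miR-483-3p, against 123.6 and 112.8 in the control at 218943_s_at. Its other 2 probe sets overlapped between miR-483-5p and the control.

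No gene of an interferon response list set beside these sensors passed the test. Of the 10 listed, 9 had a probe set, all above the filter, and 2 were higher and 7 lower with miR-483-5p, with a median log2 difference of -0.17, where 53.2% of all probe sets were lower. With miR-483-3p, 5 were higher and 4 lower, with a median of 0.04. Their summed signal was 2564 and 2436 with miR-483-5p and 2957 with miR-483-3p, against 2954 and 3034 in the control. ISG15, an interferon-induced ubiquitin-like protein, made up much of that gap, with 933.9 and 749.8 with miR-483-5p and 1002.5 with miR-483-3p, against 1210.9 and 1079.2 in the control. The part of these genes in the sensor values was not tested. A list of helicases with other names, such as EIF4A3, SNRNP200 and UPF1, had 12 genes above the filter. Of these, 6 were higher and 6 lower with miR-483-5p, and 0 passed the test.

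**Figure D3:**
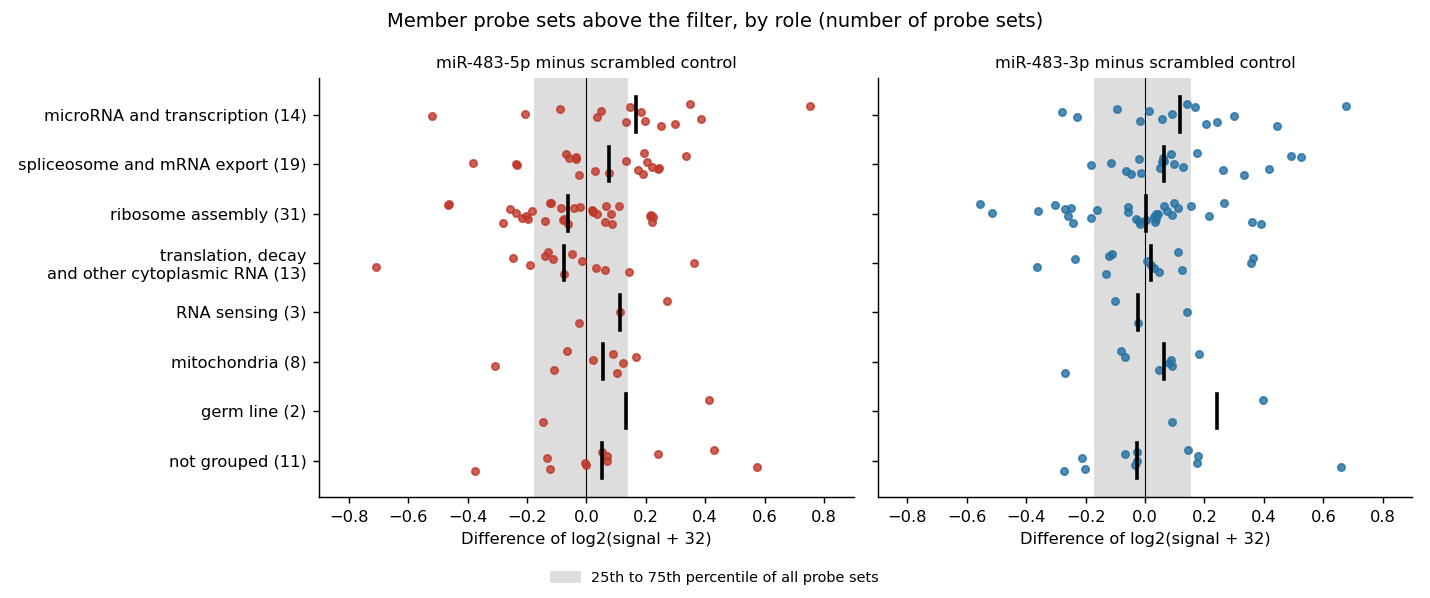
Log2 difference from the scrambled control (log2(signal + 32)) of each of the 101 member probe sets above the filter, in rows by role, for miR-483-5p at the left and miR-483-3p at the right. Points are probe sets, black bars are medians of a role and the grey band is the interquartile range of all probe sets tested. Most points lie in or near that band, and the median of the microRNA and transcription row is 0.17 with miR-483-5p, against -0.06 for ribosome assembly.

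With miR-483-3p, the median log2 difference of members from the control was 0.04, with 59 higher and 42 lower, and -0.006 over all probe sets. At an unadjusted limma p under 0.05, 3 members (2.97%) were higher, for DDX5, DDX11 and DHX8, where the share of all was 2.01%, and 2 (1.98%) were lower, both of DDX31, where it was 3.58%. The single miR-483-3p array lay above both control arrays for 39 members (38.6%), against 32.5% of all probe sets, and below both for 27 (26.7%), against 35.6%. DHX34 at 204815_s_at (-0.37), DDX17 at 213998_s_at (-0.28) and DDX6 at 1562836_at (0.45) were among the largest of these, with limma adjusted p between 0.970 and 0.990. The other DHX34 probe set above the filter, 214017_s_at, gave 0.36. The remaining DDX17 probe sets gave 0.06, -0.02, 0.14 and -0.23, and those of DDX6 gave 0.17 and 0.24. The spread of the miR-483-3p group cannot be seen from 1 array and was taken to be that of the other groups.

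Between the arms, miR-483-5p minus miR-483-3p had a median of -0.004 over members, with 50 higher and 51 lower. At an unadjusted limma p under 0.05, 0 members were higher, where the share of all probe sets was 3.27%, and 2 (1.98%) were lower, for DHX34 and DHX8, where it was 2.44%. Both miR-483-5p arrays lay above the miR-483-3p array for 33 members (32.7%), against 33% of all, and below it for 26 (25.7%), against 32.8%. DDX60L at 228152_s_at gave 0.37 and DDX42 at 1559954_s_at gave -0.36, with limma adjusted p of 0.902 and 0.916. The brighter DDX42 probe set, 201788_at, went the other way with 0.20, and both its miR-483-5p arrays lay above the miR-483-3p array. The other DDX60L probe set, 1559585_at, gave -0.004. This comparison shares its arrays with both others.

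Probe sets of one gene often disagreed, which bears on every gene named here. Of 33 member genes with more than 1 probe set above the filter, 17 had log2 differences with miR-483-5p on both sides of 0. The median range within a gene was 0.20, where the median difference of members without its sign was 0.13, and the widest were 0.95 for DDX11, 0.82 for DHX9 and 0.55 each for DDX3X and DDX31.

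**Figure D4:**
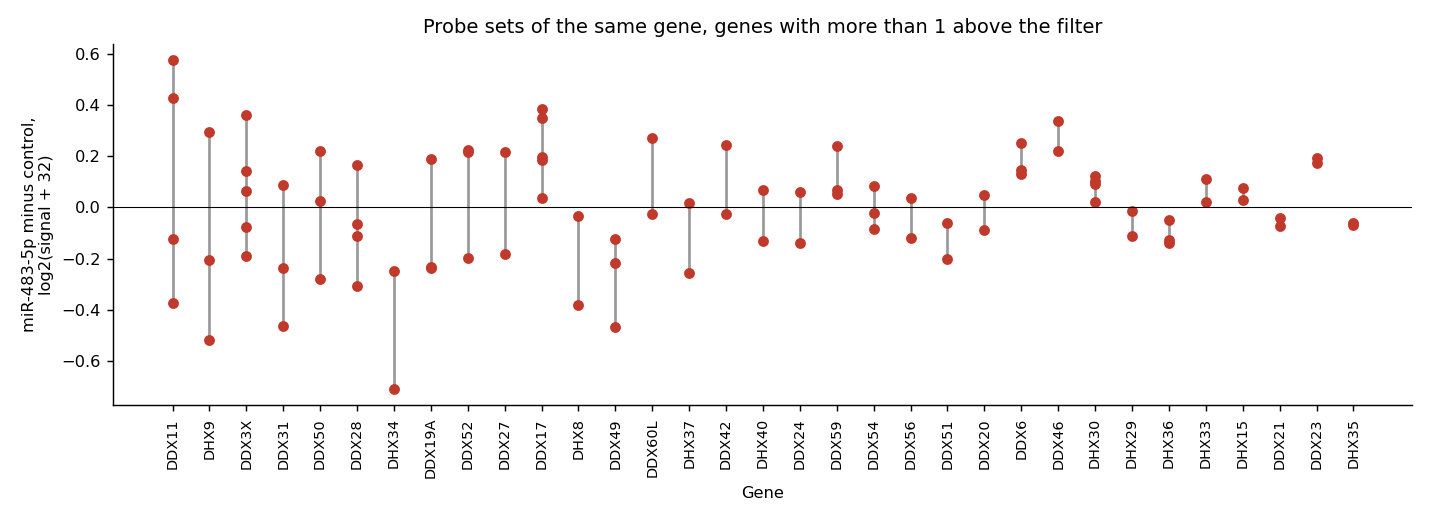
Difference of log2(signal + 32), miR-483-5p minus scrambled control, for the probe sets of each of the 33 genes with more than 1 above the filter, ordered from the widest range at the left. Each point is a probe set and a grey line joins those of a gene. DDX11 and DHX9 have the longest lines (0.95 and 0.82), and 17 lines cross 0.

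Arrays of a pair lay closer together at the median member than at the median probe set, a difference that was not tested. The median gap between the arrays, without its sign, was 0.14 for members and 0.20 for all probe sets with miR-483-5p, and 0.12 for members and 0.17 for all in the control. The gap reached 0.5 in 10 members (9.90%) with miR-483-5p, against 12.3% of all, and in 3 (2.97%) in the control, against 9.05%. The 5 widest gaps were all between the miR-483-5p arrays with the first array lower, in DHX9 at 2 probe sets, DDX6 at 1562836_at, DDX50 at 1568814_at and DDX3X at 212514_x_at. DDX50 had 9.6 and 69.1 with miR-483-5p there and 34.7 with miR-483-3p, against 45 and 48.7 in the control. In each of the 5 the second miR-483-5p array was also the highest of all arrays. What set the arrays of this pair apart was not tested.

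**Figure D5:**
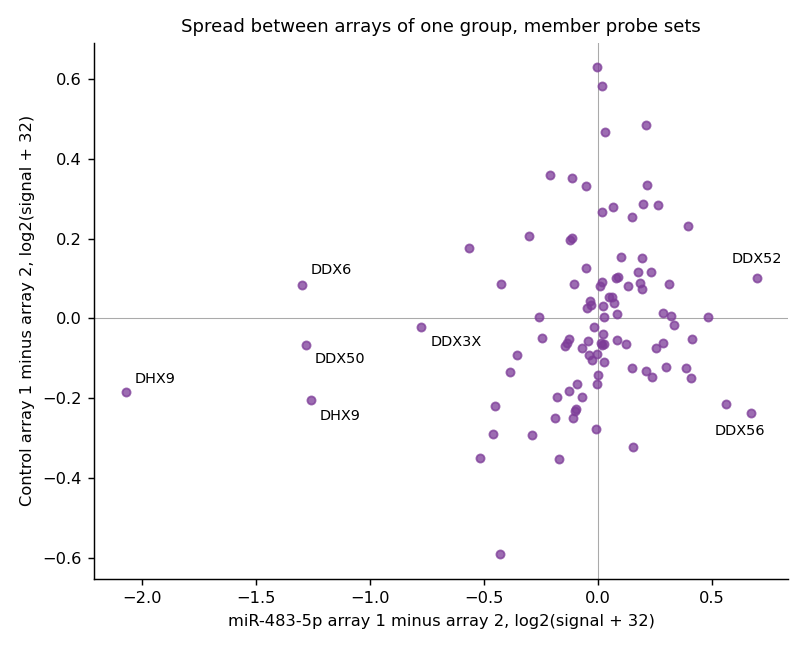
Gap between the arrays of each pair, first minus second on the log2(signal + 32) scale, with the miR-483-5p pair along the horizontal axis and the control pair along the vertical axis. Each point is 1 of the 101 member probe sets above the filter. The points of DHX9 (-2.07 and -1.26), DDX6, DDX50 and DDX3X lie far to the left, while no member passes 0.63 in size on the control axis.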

How the data were processed

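RNA of MHH-ES-1 cells was labelled as biotin cRNA and hybridised to Affymetrix arrays, per the labels' protocols. The deposited file gives intensity on a linear scale, 1 value per probe set and array. GCOS and Partek appear in the submitters' processing notes, with no version. The labels and headers do not say how signals were computed from probes, and detection calls were not used here. The 62 control probe sets were left out. Gene symbols came from the platform annotation, updated by gene identifier, and all 121 member probe sets matched a RefSeq symbol.

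Intensities were used as log2(signal + 32), a scale on which dim probe sets show too small a change. Probe sets under the 40th percentile of the mean were left out, and limma 3.58.1 in R 4.3.3 fitted a mean per group over 32768 probe sets, with 2 residual and 4.66 prior degrees of freedom. Tests were two-sided, with Benjamini-Hochberg adjustment over all of them at 0.05. The fit was tested on simulated data. Shown array by array or by difference were DHX9, DDX5, DDX17, DDX6, DDX20, DDX3X, DDX1 and DHX36, the 6 highest and 6 lowest non-overlapping differences per comparison, the 5 brightest genes, the 4 genes whose probe sets disagreed most, and the RNA sensors. The members and lists were chosen with earlier results of these data known. Figures were drawn with matplotlib 3.10.9.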

Additional observations from a re-analysis of the deposited data

How the results depend on the processing

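In every alternative tried (median centring, quantile normalization, the filter dropped or raised to the 60th percentile, a pseudocount of 1 or of 100, an intensity trend, each gene's brightest probe set or its probe set mean, and each array of a pair left out), limma called 0 members in each comparison, and the median difference of members kept its sign with miR-483-5p (0.006 to 0.06) and miR-483-3p (0.02 to 0.07) against the control. Between the arms that median ran from -0.03 to 0.04. Members at an unadjusted limma p under 0.05 numbered 1 to 10 with miR-483-5p, 1 to 6 with miR-483-3p and 0 to 7 between the arms. For miR-483-5p they numbered 8 of 101 with all arrays (7.92%, where all probe sets gave 8.33%), 5 (4.95%) with median centring or a pseudocount of 1 (8.09% and 7.07% of all), 2 and 1 of 46 genes (4.35% and 2.17%) with the brightest probe set and the probe set mean (10.7% and 10.6% of all), and 5 and 4 (4.95% and 3.96%) without the first or the second control array (5.79% and 5.30% of all).

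Averaging the probe sets of a gene, which mixes probe sets of opposite sign, turned DHX9 to -0.14 with miR-483-5p and -0.34 between the arms, DDX20 to -0.020 and DDX11 to 0.13. Leaving out 1 array with miR-483-5p against the control, DHX9 ran from -0.83 to 0.42 at 212107_s_at and from -1.56 to 0.52 at 212105_s_at. DDX3X ran from -0.58 to 0.20 at 212514_x_at, from -0.22 to 0.35 at 201211_s_at and from -0.30 to 0.15 at 1558120_at. DDX6 ran from -0.047 to 0.34 at 225549_at and from -0.40 to 0.90 at 1562836_at. DDX17 ran from -0.033 to 0.43 at 208151_x_at and from -0.055 to 0.13 at 208719_s_at, DDX11 from -0.33 to 0.082 at 208159_x_at and DDX1 from -0.052 to 0.11. DDX20 ran from -0.19 to 0.0083 at 224315_at, and DHX36 from -0.14 to 0.044 at 223139_s_at and from -0.27 to 0.010 at 223140_s_at. For DHX9 at 212107_s_at the range was -0.011 to 0.19 with miR-483-3p and -0.93 to 0.33 between the arms, where 212105_s_at ran from -1.85 to 0.22. Apart from the arrays left out, the cause was not tested. No paired analysis was possible because the labels give no replicate numbers shared between groups. Precision is limited by the number of arrays, and without detection calls the background limit of dim probe sets is not known.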

Other observations

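RNAs named after a helicase gene without being one were left out of the members, and some had signals of their own. DHX9-AS1, the antisense gene that starts beside DHX9, had 90.6 and 130.7 with miR-483-5p and 44.9 with miR-483-3p, against 100.8 and 120.9 in the control at 215467_x_at, so the miR-483-3p array was the lowest. At 1562145_at it had 33.5 and 29 with miR-483-5p and 28.7 with miR-483-3p, against 33.4 and 27.1 in the control, and the arrays overlapped. The log2 difference of 215467_x_at from the control, -0.89, rests on the single miR-483-3p array and did not pass the test. A dim DHX9-AS1 probe set below the filter, 215468_at, had 6.7 and 2.3 with miR-483-5p and 9.4 with miR-483-3p, against 8 and 9.6 in the control. DDX11L2, a pseudogene transcript, had 76 and 68.4 with miR-483-5p and 62.8 with miR-483-3p, against 54.8 and 13.7 in the control, with the control arrays far apart.

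Probe sets listed for several genes also held helicase signal. The brighter of 2 listed for DDX39B, a splicing and export helicase, with its readthrough gene had 3336.3 and 3193.6 with miR-483-5p and 3567.3 with miR-483-3p, against 2946 and 3283.3 in the control, and the one listed for DDX47 and APOLD1 had 1917.9 and 1671.6 with miR-483-5p and 1712.3 with miR-483-3p, against 1640.6 and 1693.4 in the control. Both overlapped between miR-483-5p and the control. The dim DDX39B probe set, 212384_at, had 50.4 and 36.9 with miR-483-5p and 17.1 with miR-483-3p, against 49.4 and 24.1 in the control. Its miR-483-3p array lay below both control arrays (log2 difference -0.46), where that of the brighter one lay above them (0.20). The one listed for DDX19A and DDX19B, paralogs in mRNA export, had 341.2 and 321.3 with miR-483-5p and 372.3 with miR-483-3p, against 357.6 and 379.6 in the control, with the miR-483-5p arrays lowest.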
